A study of Mus musculus with 4 samples.

Results

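The genes described here are 10 that write, maintain, read or remove DNA methylation: Dnmt1, Dnmt3a, Dnmt3b, Uhrf1, Uhrf2, Mbd2, Tet1, Tet2, Tet3 and Tdg. They were chosen by symbol, with no use of their levels, from 50600 genes in each deposited table, 21764 of them protein-coding, and all 10 were found. The study sequenced RNA of T helper 17 (Th17) primary cells in 4 libraries, from C57BL/6NJ mice, and the cells were derived by differentiation of CD4 T cells and numbered as biological replicates 1 to 4. The labels give no age, treatment or genotype beyond the strain, record that sex was not collected, and carry a single donor entry for the 4 libraries. They do not say whether the libraries came from separate animals, so p-values over libraries speak of the spread among these 4 alone. The series has 1 group and no control, so there is no contrast, and the results are levels and how they vary between libraries.

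In mammals a methyl group is placed on cytosine mainly where it is followed by guanine (CpG). DNMT3A and DNMT3B place new marks, whereas DNMT1, brought to newly copied DNA by UHRF1, restores the marks on the daughter strand after replication. TET enzymes oxidise methylated cytosine, and the glycosylase TDG cuts out the most oxidised forms, which base excision repair then replaces with plain cytosine. In CD4 T cells these enzymes are studied for their part in setting cytokine genes open or shut as helper types form.

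Total counts were 19332509 to 48558772 per library, with 98.72% to 98.94% of them in protein-coding genes. At these depths 3 counts in a gene with 1 kb of exon equal 0.206 TPM (the usual measure of transcript share, computed from counts and merged exon lengths) in replicate 4, the deepest library, and 0.518 TPM in replicate 2, the shallowest. Of the 8 T cell and Th17 markers, 7 were tested and all 7 lay above 1 TPM, from Il23r, a subunit of the interleukin 23 receptor, at 14.4 ± 2.70 TPM to Cd5, a T cell surface receptor, at 1985 ± 36.1 TPM (SD, n = 4). The remaining marker, the T cell receptor alpha constant gene Trac, is not annotated as protein-coding and stood at 1163 ± 13.2 TPM. All 10 markers of other blood cells lay below 1 TPM, Cd79a of B cells being highest at 0.139 ± 0.177 TPM (SD, n = 4), and Lyz2, Csf1r and Klrb1c had no count in any library. With DESeq2's Wald test, which gives no result for genes with no count, the call below 1 TPM held for 2 of these 10. Xist, the RNA that coats the inactive X chromosome, was at 0.916, 1.01, 154 and 152 TPM in replicates 1 to 4. The Y-linked Ddx3y was at 77.8, 58.9, 0.240 and 0.0925 TPM. By these genes replicates 1 and 2 have the pattern of male cells, and replicates 3 and 4 that of female cells. The donor entry is shared, but the 4 libraries are not all repeats of the same cells. Each SD with n = 4 spans both patterns. Within each of these pairs of libraries the spread may be technical.

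Of the 10 genes, 9 lay above 1 TPM and Tet1 lay on neither side of it, by a quasi-likelihood F test in edgeR, adjusted by Benjamini-Hochberg over all 21764 protein-coding genes at a threshold of 0.05. Among all those genes 45.9% lay above 1 TPM and 51.5% below. The median of the 10 mean levels was 40.8 TPM, against 0.411 TPM over all protein-coding genes. The 9 adjusted p-values were too small for the software to hold and were returned as 0. Their size rests on the setting. With genes averaging under 10 counts left out, the edgeR adjusted p was 1.64e-54 for Dnmt1 and 5.97e-39 for Dnmt3b. In bulk RNA a low level in every cell and a high level in few cells cannot be told apart, and neither can fewer cells of a type and less RNA per cell.

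**Figure D1:**
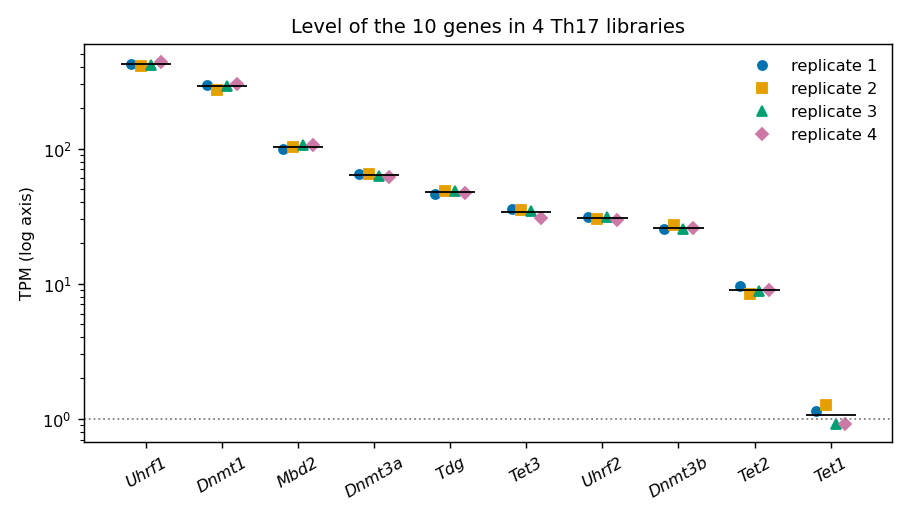
Level in TPM (vertical log axis) of each gene in each of the 4 Th17 libraries, with 1 symbol per replicate, a bar at the mean and a dotted line at 1 TPM. Uhrf1 and Dnmt1 stood highest, at means of 421 and 289 TPM, and the Tet1 points lay on both sides of the line.

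The maintenance methyltransferase Dnmt1 (mm10 chromosome 9, 20907209 to 20959888, minus strand, ENSMUSG00000004099.16) was at 295.3, 269.9, 289.5 and 299.5 TPM in replicates 1 to 4. Its mean was 289 ± 13.1 TPM (SD, n = 4), which ranked 579 of 21764 protein-coding genes, and replicate 2 was the lowest. Uhrf1 (mm10 chromosome 17, 56303321 to 56323486, plus strand, ENSMUSG00000001228.14), whose protein binds hemimethylated CpG sites and recruits DNMT1, was at 420.5, 409.0, 417.6 and 436.3 TPM. It was the highest of the 10 in every library, at 421 ± 11.4 TPM (SD, n = 4) and rank 353. Within libraries Dnmt1 stood at 0.702, 0.660, 0.693 and 0.686 of Uhrf1, a difference Dnmt1 minus Uhrf1 of -0.54 ± 0.04 on the log2(TPM + 1) scale with the same sign in 4 of 4 libraries (exact sign-flip permutation test, two-sided, p = 0.125, adjusted p = 0.125). That p is the smallest that 4 libraries allow, for this pair and for each of the 8 pairs compared. On CPM, which is not divided by length, this difference turned to 0.25, since the exons of Dnmt1 cover 7377 bases and those of Uhrf1 cover 4259.

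The second gene of the UHRF pair, Uhrf2 (mm10 chromosome 19, 30030513 to 30093722, plus strand, ENSMUSG00000024817.13), which has the same domain layout as Uhrf1 but does not replace it in maintenance, was at 31.1, 29.9, 31.3 and 29.5 TPM in replicates 1 to 4. Its mean was 30.5 ± 0.894 TPM (SD, n = 4). Uhrf1 stood 13.5, 13.7, 13.4 and 14.8 times as high within the 4 libraries, and the groups of values did not come near each other. The difference Uhrf1 minus Uhrf2 was 3.75 ± 0.07 on the log2(TPM + 1) scale (exact sign-flip permutation p = 0.125, adjusted p = 0.125, 4 of 4 libraries). Uhrf1 held 93.2% ± 0.286 of the summed UHRF level (SD, n = 4). The Uhrf2 value depends on length more than any of the other 9. Its merged exons cover 8590 bases and its longest protein-coding transcript 3536. By the shorter length its mean was 74.0 TPM, with the TPM denominator left on merged exon lengths.

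The de novo methyltransferase Dnmt3a (mm10 chromosome 12, 3806007 to 3914443, plus strand, ENSMUSG00000020661.15) was at 64.3, 64.9, 62.9 and 61.5 TPM in replicates 1 to 4, a mean of 63.4 ± 1.51 TPM (SD, n = 4). Its 4 values varied least of the 10 genes, with a coefficient of variation (CV, SD over mean) of 2.38%. Dnmt3b (mm10 chromosome 2, 153649450 to 153687730, plus strand, ENSMUSG00000027478.15), the other de novo enzyme, was at 25.5, 27.0, 25.4 and 25.7 TPM, a mean of 25.9 ± 0.781 TPM (SD, n = 4). Its highest value was in replicate 2, and all 4 were lower than the lowest of Dnmt3a. Within libraries Dnmt3b stood at 0.396, 0.417, 0.403 and 0.418 of Dnmt3a, and the difference Dnmt3b minus Dnmt3a was -1.26 ± 0.04 on the log2(TPM + 1) scale (exact sign-flip permutation p = 0.125, adjusted p = 0.125, 4 of 4 libraries). Both de novo genes lay below the maintenance gene in every library. Dnmt1 was on average 4.55 times Dnmt3a (a log2 difference of 2.17 ± 0.09) and 11.2 times Dnmt3b (3.43 ± 0.10), each with an exact sign-flip permutation p = 0.125 and an adjusted p = 0.125.

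The 3 catalytic methyltransferase genes summed to 378 ± 11.4 TPM (SD, n = 4). Of that sum Dnmt1 held 76.3% ± 1.22, Dnmt3a 16.8% ± 0.839 and Dnmt3b 6.86% ± 0.410. The Dnmt1 share was lowest in replicate 2, at 74.6%, and 76.6% to 77.4% in the other libraries. With the length of the longest protein-coding transcript in place of the merged exons, the mean shares were 72.2% for Dnmt1, 21.7% for Dnmt3a and 6.10% for Dnmt3b, in the same order.

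**Figure D2:**
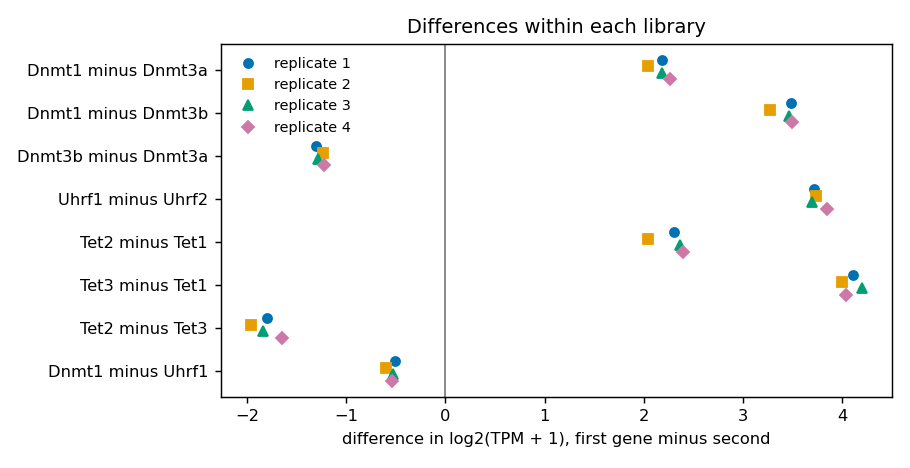
Differences in log2(TPM + 1) within each library (horizontal axis) for the 8 pairs of family members and partners, first gene minus second, with 1 symbol per replicate and a line at 0. No pair had points on both sides of 0, and Dnmt1 minus Dnmt3b in replicate 2 (3.27) lay apart from the other 3 libraries (3.46 to 3.49).

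Tet3 (mm10 chromosome 6, 83362373 to 83459084, minus strand, ENSMUSG00000034832.15) was the highest of the TET dioxygenase genes in every library, at 35.8, 35.2, 34.2 and 30.3 TPM in replicates 1 to 4. Its mean was 33.9 ± 2.45 TPM (SD, n = 4), and replicate 4 was the lowest. Tet2 (mm10 chromosome 3, 133463679 to 133545139, minus strand, ENSMUSG00000040943.12), a gene often mutated in blood cancers in humans, was at 9.56, 8.33, 8.85 and 8.99 TPM, a mean of 8.93 ± 0.508 TPM (SD, n = 4). Every Tet2 value was below every Tet3 value. Within libraries Tet2 stood at 0.267, 0.237, 0.259 and 0.296 of Tet3, and the difference Tet2 minus Tet3 was -1.81 ± 0.13 on the log2(TPM + 1) scale (exact sign-flip permutation p = 0.125, adjusted p = 0.125, 4 of 4 libraries).

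Tet1 (mm10 chromosome 10, 62804570 to 62908996, minus strand, ENSMUSG00000047146.16), the TET gene best known from embryonic stem cells, had 208, 110, 144 and 199 counts in replicates 1 to 4. These equal 1.13, 1.26, 0.919 and 0.907 TPM, a mean of 1.06 ± 0.173 TPM (SD, n = 4). Replicates 1 and 2 were above 1 TPM and replicates 3 and 4 below it, the same division as for Xist and Ddx3y, whose part in it was not tested. The exact Poisson 95% intervals, which cover counting error only, were 0.985 to 1.30, 1.04 to 1.52, 0.775 to 1.08 and 0.785 to 1.04 TPM. Each of replicates 1 and 2 overlapped each of replicates 3 and 4, but replicates 2 and 4 only just, from 1.037 to 1.042 TPM. Overlap of separate intervals does not show that libraries agree. The adjusted p against 1 TPM was 0.545 with edgeR's quasi-likelihood test and 0.929 with DESeq2's Wald test. Tet1 was above 0.5 TPM (edgeR adjusted p = 5.61e-30) and below 2 TPM (edgeR adjusted p = 3.87e-21). Tet2 stood 8.65 ± 1.51 times as high as Tet1 within libraries (a log2(TPM + 1) difference of 2.28 ± 0.16), and Tet3 32.5 ± 3.87 times as high (4.09 ± 0.09), both in 4 of 4 libraries with an exact sign-flip permutation p = 0.125 and an adjusted p = 0.125.

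The TET genes summed to 43.8 ± 2.63 TPM (SD, n = 4), of which Tet3 held 77.2% ± 1.36, Tet2 20.4% ± 1.55 and Tet1 2.40% ± 0.312. The Tet2 share was highest in replicate 4, at 22.4%, where the Tet3 share was lowest, at 75.4%. By the longest protein-coding transcript the mean shares were 74.7% for Tet3, 23.7% for Tet2 and 1.59% for Tet1, in the same order.

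Mbd2 (mm10 chromosome 18, 70568189 to 70626131, plus strand, ENSMUSG00000024513.16), which codes for a methyl-CpG binding protein of the NuRD repressor complex, was at 98.8, 102, 106 and 105 TPM in replicates 1 to 4. Its mean of 103 ± 3.32 TPM (SD, n = 4) was the third highest of the 10. The glycosylase gene Tdg (mm10 chromosome 10, 82629828 to 82650799, plus strand, ENSMUSG00000034674.18) was at 46.4, 48.8, 48.6 and 46.7 TPM, a mean of 47.6 ± 1.26 TPM (SD, n = 4). Both varied little, with CVs of 3.22% for Mbd2 and 2.64% for Tdg. The Tdg level is uncertain, because it shares sequence with a pseudogene. Glt8d2 on the opposite strand overlaps 367 bases (6.83%) of the Tdg exons, and the counting was by strand.

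In order of mean level the 10 genes were Uhrf1, Dnmt1, Mbd2, Dnmt3a, Tdg, Tet3, Uhrf2, Dnmt3b, Tet2 and Tet1. Only Tet3 and Uhrf2, among neighbours in that order, had ranges over the 4 libraries that overlapped. Tet3 was the higher of these in 4 of 4 libraries, by 1.03 to 1.18 times. The smallest step without overlap was Uhrf2 over Dnmt3b, 1.18 times by the means, and the widest was Tet2 over Tet1, 8.46 times.

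None of the 10 genes was called varying between libraries beyond the dispersion trend for genes of like level (deviance of a negative binomial model with edgeR's trended dispersion, Benjamini-Hochberg adjustment over 11171 genes that averaged 10 counts or more), where 0.501% of those genes did. With DESeq2's dispersion trend the count was also 0. Tet3 had the lowest unadjusted p of the 10, 0.0234 (edgeR adjusted p = 0.698), and was the only 1 of them with an unadjusted p under 0.05. Without replicate 4 its unadjusted p from that edgeR model was 0.856. The CVs ran from 2.38% for Dnmt3a to 7.23% for Tet3 in the 9 genes above 1 TPM, and reached 16.4% for Tet1. The median CV was 3.12% over the 10 genes and 5.46% over the 11171 genes tested. It was 5.12% over the 9785 genes tested whose mean TPM lay within the range of the 10. Those 9785 were not matched to the 10 in counts, which also bear on the CV. A low CV is not particular to the 10. Among the gene lists described here, the S phase genes had a lower median CV, 2.55%, and each other list with a value had a higher one. It was 13.3% for the T cell and Th17 markers, of which 1 of the 7 tested was called varying by the same edgeR model. That marker was Il17f, at 557, 391, 501 and 521 TPM in replicates 1 to 4 (edgeR adjusted p = 2.14e-06).

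Paralogs and processed copies elsewhere in the genome bear on 3 of these levels, because reads that map to several places were not counted. Of the 50-base words in the annotated transcripts of Tdg, 41.2% also occur in transcripts of other genes on either strand. On the same strand the share was 35.5%, so the Tdg level is uncertain. Most of these words lie in Tdg-ps, a processed pseudogene on chromosome 15 (82516311 to 82519278, plus strand), which holds 58.4% of the 1214 words of the Tdg coding sequence. Tdg-ps itself had 12, 3, 15 and 10 counts in replicates 1 to 4, or 0.332, 0.175, 0.486 and 0.231 TPM. For Uhrf1 the shared part was 15.4%, mostly with the processed pseudogene Gm5648 on chromosome X (121334988 to 121336574, minus strand), which was at 1.19, 0.544, 0.787 and 0.563 TPM. For Dnmt3b it was 9.81%, with Dnmt3c (chromosome 2, 153696652 to 153729907, plus strand), a methyltransferase gene active in male germ cells of mice, which had no count in any library. In the other 7 genes under 1% of the words were shared. Stretches of 100 coding bases are printed beside the best-matching stretch of the copy. Each is the first, in steps of 100, to hold a shared 50-base word and also a difference. Few differences were thus built into the choice, and the stretches are not typical of the whole copies. Over the whole coding sequence 27.6% of the Uhrf1 words and 19.4% of the Dnmt3b words were shared with the copy. The stretches were read from GENCODE M21 and are numbered from the first coding base, and capitals mark the bases that differ.

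Tdg and Tdg-ps, coding bases 101 to 200, differ at 3 positions.
Tdg: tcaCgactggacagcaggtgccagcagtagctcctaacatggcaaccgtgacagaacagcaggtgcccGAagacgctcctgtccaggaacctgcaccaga
Tdg-ps: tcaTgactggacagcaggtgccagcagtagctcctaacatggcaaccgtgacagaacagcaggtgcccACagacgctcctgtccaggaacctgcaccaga
Uhrf1 and Gm5648, coding bases 801 to 900, differ at 1 position.
Uhrf1: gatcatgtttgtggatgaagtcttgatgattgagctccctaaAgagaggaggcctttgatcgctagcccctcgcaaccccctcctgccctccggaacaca
Gm5648: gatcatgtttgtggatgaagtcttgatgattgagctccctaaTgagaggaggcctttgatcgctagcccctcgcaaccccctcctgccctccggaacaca
Dnmt3b and Dnmt3c, coding bases 1201 to 1300, differ at 2 positions.
Dnmt3b: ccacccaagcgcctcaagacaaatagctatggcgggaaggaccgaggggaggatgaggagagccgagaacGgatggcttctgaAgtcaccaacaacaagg
Dnmt3c: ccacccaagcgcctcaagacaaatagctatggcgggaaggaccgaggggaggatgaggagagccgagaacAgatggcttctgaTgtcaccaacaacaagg

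Taking the shared words of either strand out of the lengths put Tdg at 81.0 TPM, 1.70 times its level above and ahead of Dnmt3a. For Tdg this also removed words shared only on the opposite strand, as where Glt8d2 overlaps it. Reads of that overlap need not be lost when counting is by strand, so 81.0 TPM may be too high. The same step put Uhrf1 at 497 TPM and Dnmt3b at 28.7 TPM and left both in their places. Dividing by the longest protein-coding transcript raised 9 means by 1.18 to 2.43 times and Tet1 by 1.05 times. By that length Uhrf2 passed Tdg and Tet3, and the rest kept their order. In both steps the TPM denominator kept the merged exon lengths of all genes. Each rise is thus the ratio of the lengths alone, set by the annotation and not by the counts.

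**Figure D3:**
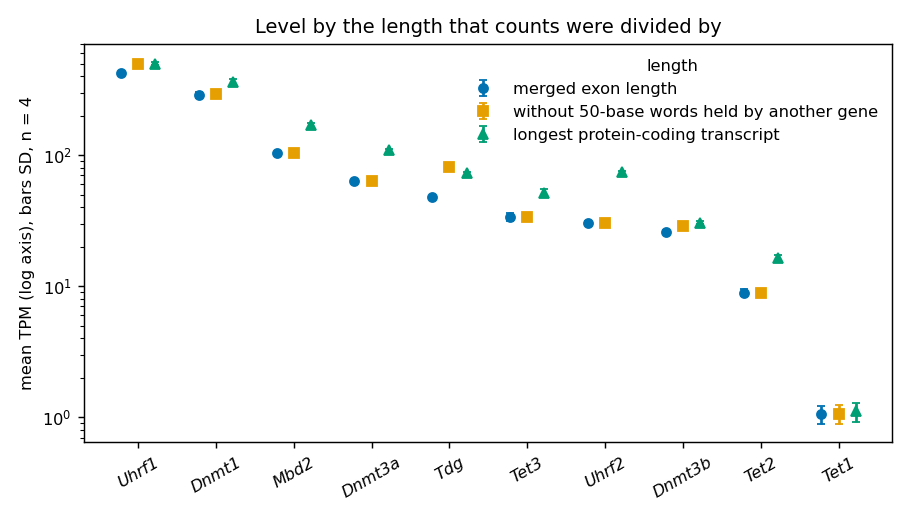
Mean level in TPM (vertical log axis, bars SD, n = 4) of the 10 genes when counts are divided by the merged exon length, by that length without shared words, or by the longest protein-coding transcript. The TPM denominator kept the merged exon lengths throughout. The symbols part most for Uhrf2 (30.5 TPM by merged exons and 74.0 TPM by the longest transcript) and least for Tet1 (1.06 and 1.11 TPM).

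Most RefSeq start windows of these genes held more CpG than the median window of all genes. RefSeq promoter windows (GRCm38.p6, 250 bases before a start to 50 after it) were found for 9 of the 10 genes, Mbd2 being the one without an entry, and gave 14 windows. They held 2 to 57 CpG dinucleotides with a median of 27, against a median of 7 over 32851 windows of all genes. Above that median of 7 lay 13 windows, and 1 lay below it. The window of Tet2 had the most, 57, a number that 0.152% of all windows reach, while the window at the Dnmt1 start farthest upstream (20959888) had the fewest, 2. The other Dnmt1 windows held 12 and 33. The only windows of Tet1 and Tet3 lay 21672 and 17406 bases from the gene starts in the deposited tables. They held 17 and 22 CpG, numbers that 31.4% and 23.1% of all windows reach. Counts per gene do not tell which start was used, and methylation of these windows was not measured. The 250 bases before each of 3 starts are printed to show that range, 5' to 3' on the minus strand, with each CG in capitals.

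Dnmt1 chr9:20959889-20960138, with 2 CpG before the start.
Dnmt1: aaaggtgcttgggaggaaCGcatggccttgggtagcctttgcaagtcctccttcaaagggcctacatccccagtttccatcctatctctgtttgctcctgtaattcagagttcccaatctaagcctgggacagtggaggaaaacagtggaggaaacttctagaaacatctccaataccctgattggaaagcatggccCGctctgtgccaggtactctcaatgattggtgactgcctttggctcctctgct
Tet1 chr10:62887325-62887574, with 15 CpG before the start.
Tet1: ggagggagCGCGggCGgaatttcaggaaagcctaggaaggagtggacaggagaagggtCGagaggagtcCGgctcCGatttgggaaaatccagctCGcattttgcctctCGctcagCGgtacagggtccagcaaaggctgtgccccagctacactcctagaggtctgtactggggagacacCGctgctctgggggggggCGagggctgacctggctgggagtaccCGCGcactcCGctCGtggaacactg
Tet2 chr3:133544391-133544640, with 51 CpG before the start.
Tet2: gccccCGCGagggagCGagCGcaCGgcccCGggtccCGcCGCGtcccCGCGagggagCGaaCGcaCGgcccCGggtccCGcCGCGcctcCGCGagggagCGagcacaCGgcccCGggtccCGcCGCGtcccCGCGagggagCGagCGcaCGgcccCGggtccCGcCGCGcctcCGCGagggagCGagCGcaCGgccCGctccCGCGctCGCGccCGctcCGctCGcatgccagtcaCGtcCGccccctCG

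The Tet2 stretch repeats a run of closely spaced CG pairs, whereas the Dnmt1 stretch shows 2 pairs far apart. The letters TTTGGCGC or TTTCCCGC, forms of the site that E2F factors bind at S phase genes, were searched on both strands and found in 1 of the 14 windows, that of the Dnmt1 start at 20952623. They occur in 1.56% of all 32851 windows.

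**Figure D4:**
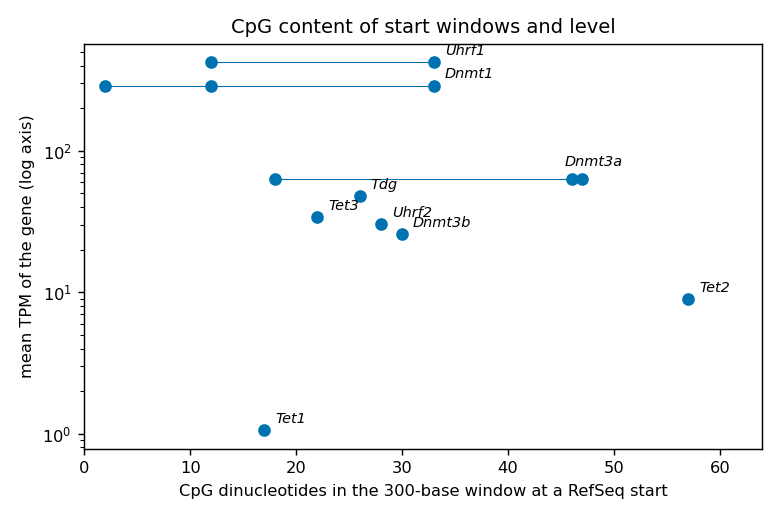
CpG dinucleotides in each 300-base RefSeq start window (horizontal axis) against the mean level of its gene in TPM (vertical log axis), for the 9 genes with windows, with lines joining windows of 1 gene. Tet1 and Tet2 had the lowest levels, with 17 and 57 CpG, and the windows of Dnmt1 ran from 2 to 33 CpG at 289 TPM.

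Genes that work with the methyltransferases were mostly expressed. Of 11 partners of DNA methylation, 8 lay above 1 TPM and 3 below, with a median of 148 TPM. Pcna, the clamp that carries DNMT1 at replication forks, was highest at 743 ± 31.3 TPM (SD, n = 4). The 3 below were germline or early embryo factors: Dnmt3l, the catalytically inactive partner of the de novo enzymes, and Dppa3, which keeps UHRF1 off chromatin in oocytes, had no count in any library, where 3 counts over the 4 libraries would equal 0.0234 and 0.0783 TPM, and Zfp57, which guards imprinted marks, had 0, 1, 2 and 12 counts in replicates 1 to 4. With DESeq2's Wald test Zfp57 lay on neither side of 1 TPM. That test gives no result for genes with no count, such as Dnmt3l and Dppa3. Picked out after their values were seen were the chromatin remodeller Hells at 203 ± 5.88 TPM, its activator Cdca7 at 279 ± 4.52 TPM and Usp7, which deubiquitinates UHRF1 and DNMT1, at 148 ± 3.84 TPM (SD, n = 4).

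The replication background was high as well. All 8 S phase genes lay above 1 TPM, with a median of 545 TPM, from Cdc45 of the replicative helicase at 183 ± 14.4 TPM to Mcm3 of the same helicase at 713 ± 18.5 TPM (SD, n = 4). Of the 10 methylation genes, replicate 2 was the lowest library for 3, Dnmt1, Uhrf1 and Tet2, and the highest for 4. It was the lowest for 6 of the 8 S phase genes and the highest for 0. Replicate 4 was the lowest for 4 of the 10. Such counts were not made over all genes, and whether the lists move together was not tested. The methyl donor pathway was expressed throughout. All 6 genes lay above 1 TPM, with a median of 86.8 TPM, and Mat2a, which makes S-adenosylmethionine, was highest at 404 ± 15.2 TPM (SD, n = 4).

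All 8 of the other methyl-CpG readers lay above 1 TPM, with a median of 15.9 TPM. Mbd3, which takes the place of MBD2 in the NuRD complex, was highest at 287 ± 8.30 TPM, and the zinc finger reader Zbtb38 was lowest at 3.66 ± 0.434 TPM (SD, n = 4). Mbd3, Mbd5 and Mbd6 carry the methyl-binding domain but are known to bind methylated DNA weakly or not at all in mammals. Mbd2 stood at 103 TPM, above the median of these 8 and below Mbd3.

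Of 14 base excision repair and deaminase genes, which act after TET and TDG or offer another route to demethylation, 12 were called above 1 TPM, 1 was called below and 1 was on neither side, with a median of 22.7 TPM. Apex1, the endonuclease that cuts the backbone at the site TDG leaves, was highest at 385 ± 4.85 TPM (SD, n = 4). It shares 51.7% of its words with Pip4p1, nearly all on the opposite strand, and counting was by strand. Neil2, a glycosylase for oxidised bases, was at 0.680, 0.805, 0.398 and 0.853 TPM and was called neither above nor below 1 TPM (edgeR adjusted p = 0.113). With DESeq2's Wald test 11 lay above, Gadd45a, at 2.18 ± 0.734 TPM (SD, n = 4), being lost at an adjusted p of 0.0781.

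TET enzymes use iron and alpha-ketoglutarate and are stimulated by ascorbate. Of 9 genes for their cofactors and regulators, 7 were called above 1 TPM, 1 was called below and 1 was on neither side, with a median of 32.9 TPM. Glud1, a mitochondrial enzyme that makes alpha-ketoglutarate from glutamate, was highest at 191 ± 2.87 TPM (SD, n = 4). The CXXC regulators of TET2 lay at the bottom. Cxxc5 was at 0.506, 1.37, 1.14 and 1.09 TPM, called neither above nor below 1 TPM (edgeR adjusted p = 0.978), and Cxxc4 had no count in any library (3 counts over the 4 libraries would equal 0.00521 TPM).

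The 10 germline genes, textbook cases of genes kept silent in body cells by promoter methylation, all lay below 1 TPM by edgeR's test, with a median of 0.0220 TPM. Brdt, a testis bromodomain gene, was highest at 0.337, 0.135, 0.338 and 0.362 TPM in replicates 1 to 4. Mael, Asz1, Hormad1 and Taf7l had no count in any library. With DESeq2's Wald test 1 of the 10 was called below 1 TPM and 9 were not. Those 9 include the genes with no count, for which that test gives no result.

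**Figure D5:**
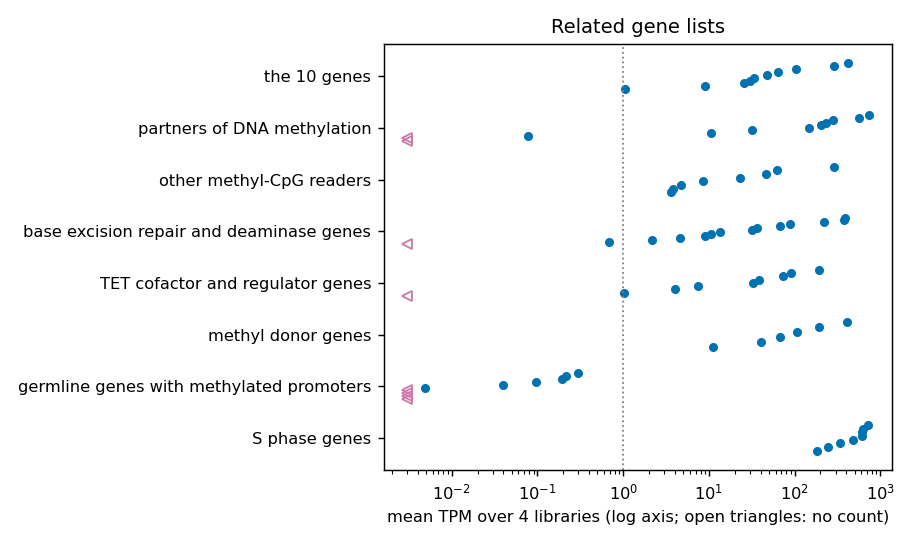
Mean level over the 4 libraries in TPM (horizontal log axis, dotted line at 1 TPM) of each gene of the 10 and of 7 related lists, with open triangles at the left edge for genes with no count. The S phase genes all lay to the right, from 183 to 713 TPM, and the germline genes all to the left, at 0.293 TPM or less.

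By the root mean square difference of log2(TPM + 1) over the 4 libraries, the protein-coding genes most like Dnmt1 in level were Ppp2cb at 0.03 and Morf4l2 at 0.04. For Tet2 they were Dennd1a at 0.04 and Trafd1 at 0.04, with mean levels of 8.85 and 8.77 TPM. For Tdg they were Anapc4 at 0.02 and Nfyc at 0.02, with mean levels of 47.9 and 48.0 TPM. The measure finds genes of the same level, and with 4 libraries of 1 group it says nothing else.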

How the data were processed

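RNA was measured in 4 Th17 libraries. The authors counted read pairs per gene on mm10 with featureCounts 1.4.6-p4 and the GENCODE M13 annotation, per the file headers, and deposited whole counts. Pairs were counted by strand with both ends mapped, and multi-mapping reads were not counted. For the aligner, no version is given in the sources used. The headers name a 24 hour sample, a time the labels do not give. The assay is labelled as total RNA-seq, whereas the name of the linked protocol speaks of poly(A) RNA. Counts of the 6 pairs of libraries differed by more than sampling noise (chi-square per degree of freedom 4.36 to 11.4), so none was treated as a duplicate.

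From the deposited counts and exon lengths, TPM was computed here over all 50600 genes. Symbols and gene types came from GENCODE M21 by Ensembl identifier, which matched 50376 (99.56%); coordinates are those of the tables. The level test was edgeR 4.0.16 in R 4.3.3, in which the fitted intercept was tested two-sided by quasi-likelihood, with the log count at 1 TPM as offset. Variation was tested one-sided with TMM, setting the deviance of a negative binomial model with edgeR's dispersion trend against chi-square. Pairs were tested by exact sign-flip permutation with a pseudocount of 1, adjusted over 8 pairs. Shared 50-base words were searched in M21 transcripts on both strands, and a share of at least 25% is called uncertain.

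Tested on simulated data with known answers, the test of variation among 11171 genes found 88% of those changed 2-fold in 1 library and 98% of those changed 4-fold, with 4 false calls. Of 5000 genes, the level test found 100% of those set to 2 TPM and 97% of those set to 0.5 TPM, with 16 false calls. These 5000 were drawn from genes with a mean of 10 counts or more, both observed and at 1 TPM. Each was simulated with the trend dispersion of its observed level, not of the level it was set to. That dispersion was 0.00131 for Dnmt1 and 0.0120 for Tet1, which lay near 1 TPM. Genes observed far above 1 TPM thus had less noise than the trend gives near 1 TPM, and the rates of the level test may be too favourable. The rates do not cover calls for genes with few or no counts. The alternatives were DESeq2 1.42.0, other size factors, a count filter, other levels, pseudocounts, denominators and lengths, and each library left out. Reads carry no molecular identifiers and so may copy 1 molecule, and intervals and limits from 3 counts cover counting error only.

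The 10 genes, the lists and the tests were chosen with earlier results of these data known. Named are all 10 genes, the highest and lowest gene of each list, any list gene on neither side of 1 TPM, and, for Dnmt1, Tet2 and Tdg, the 2 genes nearest in level; where several list genes had no count, those described are named. Some genes that this rule names are not reported here; the counts of their lists include them. Hells, Cdca7, Usp7, Gadd45a, Zfp57, Il17f, Xist and Ddx3y were named after their values were seen.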

Additional observations from a re-analysis of the deposited data

Results flagged for a closer look

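The difference Dnmt1 minus Dnmt3b was 3.27 on the log2(TPM + 1) scale in replicate 2, against 3.49, 3.46 and 3.49 in replicates 1, 3 and 4. It was picked out because its gap to the nearest other library, over the whole range, was 0.867, above Dixon's 95% value for 4 samples. Replicate 2, the shallowest library, had the lowest Dnmt1 level (269.9 TPM) and the highest Dnmt3b level (27.0 TPM) of the 4.

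The level of Brdt was 0.135 TPM in replicate 2, against 0.337, 0.338 and 0.362 TPM in replicates 1, 3 and 4, with a gap over range of 0.888. It rests on 4 counts in replicate 2, and 21, 18 and 27 in replicates 1, 3 and 4. Over the 38 values looked at in this way, chance alone would pick out about 1 in 20.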

How the results depend on the processing

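No paired analysis was possible because the libraries form 1 group, so no replicate number is shared between groups; the differences within libraries compare genes, not groups. Of 64 alternative values of the 8 differences between pairs, 63 kept their direction and 1 reversed: Dnmt1 minus Uhrf1 was 0.25 on log2(CPM + 1), which is not per length. The 9 genes above 1 TPM stayed 9 under 11 alternatives, and all 10 lay above 0.5 TPM, while against 2 TPM 1 gene, Tet1, lay below. Away from these other levels, the adjusted p of Tet1 ran from 0.158 to 0.929. None of the 10 genes was called varying under any of the 8 alternatives run. Over all genes the number called varying was 56, with 249 at a common dispersion, 36 without replicate 3 and 31 without replicate 4. Over all genes 11211 lay below 1 TPM with edgeR and 1184 with DESeq2's Wald test. With edgeR and genes averaging under 10 counts left out, the number was 766. DESeq2's test gives no result for genes with no count, and 14060 of the 21764 protein-coding genes had any. Part of the gap between the tools is thus genes that DESeq2 did not test. Calls below 1 TPM of genes with few counts also rest on the tool. Of 70 alternative mean levels, 19 moved by more than 1 SD, all through the length or the denominator, which raised each of the 10 by 1.05 times. The length alternatives by longest transcript were chosen after seeing the data.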
